A study of Mus musculus with 6 samples.

Results

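The 39 genes described here make, sense, move or modify cholesterol and fatty acids. They were taken by symbol from the deposited tables of bone marrow-derived mesenchymal stem cells (MSCs, adherent stromal cells that can form bone, fat and cartilage cells), and all 39 were among the 15634 genes listed. The TNF group held 3 libraries of MSCs from wild-type C57BL/6J mice given 10 ng/mL TNF-α, an inflammatory cytokine, for 24 h. The Control group held 3 libraries of MSCs of the same strain and genotype that were left unstimulated over the same time. The medium of both groups was α-MEM plus fetal bovine serum at 15%, which itself brings cholesterol and fatty acids to the cells. The labels do not say whether the libraries of a group came from separate cultures or animals, so p-values measure the spread between these libraries, which may be technical.

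Cholesterol is built from acetyl-CoA through mevalonate to farnesyl pyrophosphate, joined to squalene, closed into lanosterol and trimmed to cholesterol. When membrane sterol is low, the carrier Scap takes the SREBP transcription factors (genes Srebf1 and Srebf2) to the Golgi, where they are cut and released to the nucleus, and the Insig proteins hold Scap back when sterol is plentiful. SREBPs switch on sterol and fatty acid enzymes, often together with NF-Y, a factor that binds CCAAT. Excess sterol is turned into oxysterols, which activate the LXR receptors (genes Nr1h2 and Nr1h3), and LXRs switch on the export pumps Abca1 and Abcg1.

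Total counts ran from 45629973 to 77142418 per library. Over the 39 genes, single counts ran from 189 for Pmvk in TNF library 2 to 87752 for Scd2 in Control library 2. One gene of 18S ribosomal RNA took 19.4% of the counts of TNF library 2, against 1.10% to 3.55% in the other 5 libraries. All 14 stromal markers looked for were listed. Of these, 3 were called higher (Pdgfra, Cd44 and Lepr) and 3 lower (Thy1, Col1a1 and Col1a2). The 14 markers summed to 4581 to 5325 TPM (a level scaled to transcript length and library) in TNF libraries. In Control libraries they summed to 7545 to 8619 TPM. This sum follows the collagen genes most. Col1a1 averaged 1089 TPM in TNF and 2369 TPM in Control, and Col1a2 averaged 1912 TPM in TNF and 3274 TPM in Control. Of 25 macrophage markers 24 were listed, none of them at 0 in any library. The macrophage markers summed to 3258 to 4112 TPM in TNF libraries and 4588 to 6100 TPM in Control libraries, and 4 of them were called higher and 10 lower. In CPM (counts scaled to library size with TMM factors), the sums were 3012 to 3266 in TNF libraries and 3262 to 4688 in Control libraries. Of 12 adipocyte markers 6 were listed, with Fabp4 and Lpl called higher and Plin4, Pparg, Cebpa and Car3 called lower. The part of stromal, macrophage and adipocyte RNA in the results on the 39 genes was not tested, and fewer cells of a type and less RNA per cell cannot be told apart in bulk RNA. All 10 proliferation markers were called lower, with summed levels of 239 to 253 CPM in TNF libraries and 383 to 409 CPM in Control libraries, and their part was not tested either.

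The largest changes in RNA among the 39 genes were those of Ch25h, which makes an oxysterol, and Abca1, a sterol export pump. Ch25h was 13.8-fold and Abca1 2.23-fold higher in TNF. Oxysterols and sterol export themselves were not measured. Among the enzymes that build cholesterol and fatty acids, some rose and some fell, none by 2-fold. With edgeR's quasi-likelihood test and Benjamini-Hochberg adjustment over all 15547 tested genes, 8 of the 39 genes were called higher in TNF and 5 lower at an adjusted p under 0.05. That is 33.3% called, beside 32.4% of all tested genes (16% higher and 16.4% lower), so the number of calls does not set these genes apart. The TNF and Control libraries did not overlap in CPM for 18 of the 39 genes, beside 48.7% of all tested genes. The median absolute log2 fold change was 0.18, against 0.28 over all tested genes. Ch25h and Abca1 were the only 2 of the 39 called with at least a 2-fold difference, beside 1715 of all 15547 tested genes. For 28 of the 39 genes the 95% interval of the fold change lay within 1.5-fold either way (71.8%), beside 47.4% of all tested genes. These comparisons with all tested genes were not matched for level. Of the 15634 listed genes 10852 had a mean of at least 5 CPM, and all 39 genes were among these. The plot by role shows the fold changes.

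**Figure D1:**
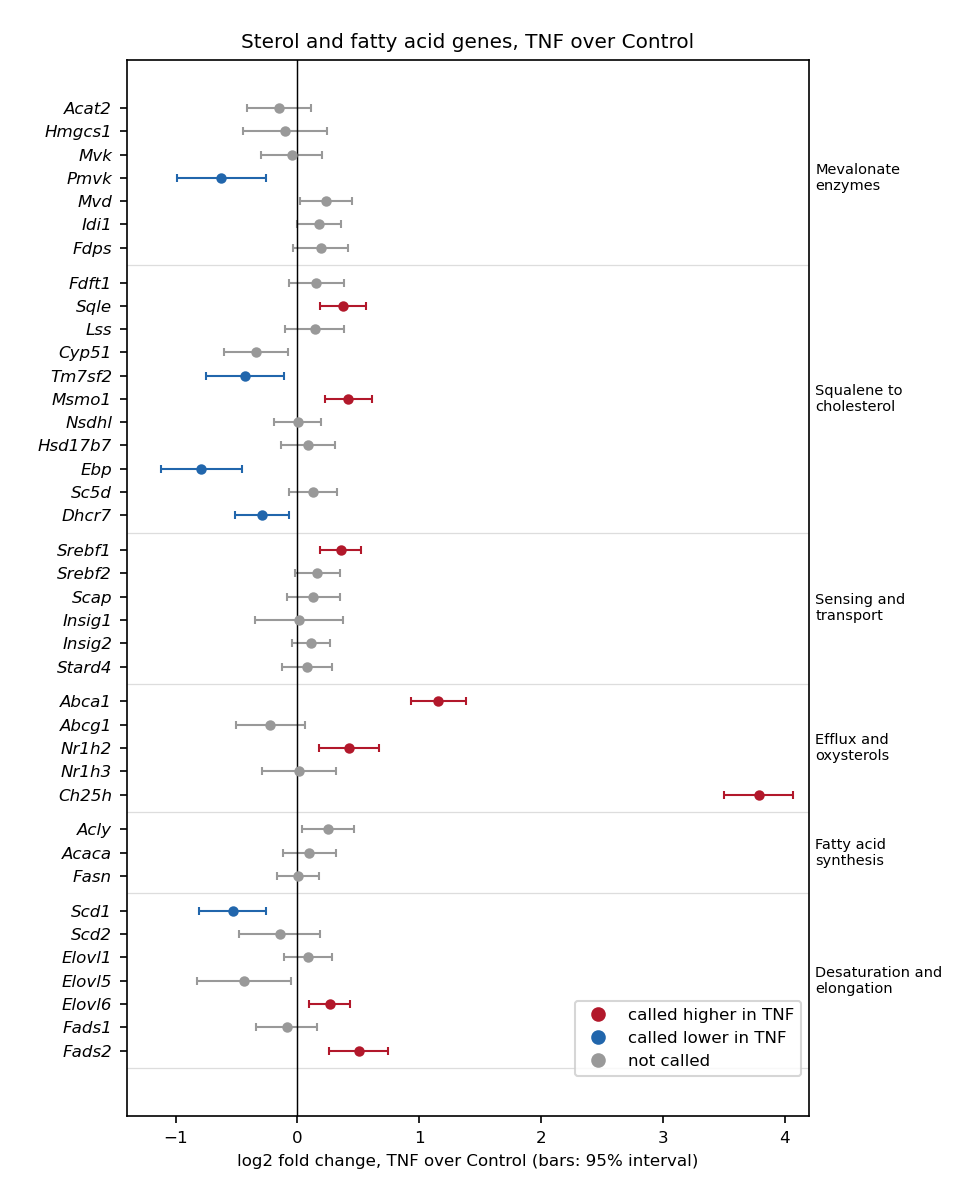
Log2 fold change of TNF over Control for each of the 39 genes, ordered by role from top to bottom, with 95% intervals as bars (3 TNF and 3 Control libraries). Colours mark genes called higher, called lower or not called at an adjusted p under 0.05. Ch25h at 3.79 and Abca1 at 1.16 stand to the right, and the other 37 genes lie between -0.79 and 0.50.

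The smaller higher calls were lost under some settings. Of 21 alternatives, Msmo1 and Fads2 kept theirs in 17, Sqle and Srebf1 in 16, Nr1h2 in 14 and Elovl6 in 11. When library totals replaced the TMM factors, the test left Ch25h and Abca1 as the 2 genes called higher among the 39, and limma on log2(TPM + 1), which also changes the test and the unit, left the same 2. The lowest log2 fold change over all 21 alternatives was 0.33 for Msmo1 (0.42 as reported), 0.29 for Sqle (0.38), 0.42 for Fads2 (0.50), 0.27 for Srebf1 (0.36), 0.25 for Nr1h2 (0.42) and 0.18 for Elovl6 (0.27). Over all genes, the higher share of calls was 49.4% with TMM factors, 38.5% with library totals and 40.6% with limma on log2(TPM + 1). With library totals taken without the 18S gene, a setting chosen after seeing the data, 8 of the 39 genes were called higher and 6 lower.

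Of the 7 enzymes of the mevalonate steps, 1 fell and none rose (14.3% called, beside 32.4% of all tested genes). The faller was Pmvk, which adds the second phosphate to mevalonate. Its level was 5.53, 4.83 and 6.00 CPM in TNF libraries, against 7.21, 10.4 and 7.57 CPM in Control libraries. The groups did not overlap, and the highest value was that of Control library 2. The fold change on the log2 scale was -0.62 ± 0.16 (SE, adjusted p = 0.01774). Without TNF library 1 the adjusted p was 0.05977 and without TNF library 2 it was 0.06338.

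Hmgcs1, which condenses acetoacetyl-CoA to HMG-CoA and is a textbook SREBP target, measured 95.2, 108 and 99.3 CPM in TNF libraries and 95.4, 137 and 91.5 CPM in Control libraries. Control library 2 alone stood above the others, and the log2 fold change of -0.10 ± 0.15 (SE, adjusted p = 0.6452) had a 95% interval of -0.44 to 0.25. Mvd, the decarboxylase, averaged 54.9 ± 5.93 CPM in TNF and 46.7 ± 1.34 CPM in Control (SD, n = 3 each), with an adjusted p of 0.09185 that became 0.01973 without TNF library 2. Idi1, which interconverts the isoprenoid building blocks, had non-overlapping groups of 87.2 to 98.9 CPM in TNF and 80.2 to 83.4 CPM in Control, with an adjusted p of 0.1174. Fdps makes farnesyl pyrophosphate and was the most abundant of the sterol enzymes per length, at 274 TPM in TNF and 253 TPM in Control. Its adjusted p was 0.1778. Acat2 (acetoacetyl-CoA thiolase) and Mvk (mevalonate kinase) had log2 fold changes of -0.15 and -0.05 and were not called.

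The 11 enzymes from squalene synthesis to cholesterol held 2 genes that rose and 3 that fell (45.5% called, beside 32.4% of all tested genes). The risers were Sqle, the oxygen-using epoxidase that commits squalene to the sterol path, and Msmo1, which takes part in removing methyl groups from the sterol ring. Sqle measured 199.998, 187 and 187 CPM in TNF libraries, against 144, 144 and 155 CPM in Control libraries. Msmo1 measured 202, 194 and 180.1 CPM in TNF libraries, against 145, 139.6 and 146.5 CPM in Control libraries. In both genes every TNF library lay above every Control library. On the log2 scale Sqle was higher by 0.38 ± 0.08 (SE, adjusted p = 0.008021) and Msmo1 by 0.42 ± 0.08 (SE, adjusted p = 0.005099). Without TNF library 1 the adjusted p of Sqle was 0.05201, and Msmo1 was called without any single library.

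Ebp, the isomerase that shifts the ring double bond late in the path, fell most among the sterol enzymes. It measured 83.9, 69.2 and 106.5 CPM in TNF libraries, against 144, 153 and 152 CPM in Control libraries. The TNF libraries varied more among themselves than the Control libraries, yet the groups were far apart. The level was 42.1% lower in TNF, with a log2 fold change of -0.79 ± 0.14 (SE, adjusted p = 0.003376), and it was called lower under all 21 alternative settings.

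Tm7sf2 and Dhcr7, both sterol reductases, were called lower close to the threshold. Tm7sf2 measured 12.5, 10.1 and 15.0 CPM in TNF libraries, against 15.9, 17.9 and 16.7 CPM in Control libraries, with a log2 fold change of -0.43 ± 0.14 (SE, adjusted p = 0.04664). Dhcr7, which makes cholesterol from a late precursor, measured 19.9, 18.3 and 17.9 CPM in TNF libraries, against 21.1, 25.01 and 22.4 CPM in Control libraries, with a log2 fold change of -0.29 ± 0.10 (SE, adjusted p = 0.04874). The TNF and Control libraries did not overlap in either gene. The call of Dhcr7 was lost without any 1 library, at adjusted p values of 0.06169 to 0.1203. That of Tm7sf2 was lost in 5 of 6 such repeats, at up to 0.1265, and held without TNF library 3 (0.0121). Tm7sf2 shares 532 exon bases with Vps51 on the same strand in the mouse annotation, so reads there could be given to either gene.

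The other 6 enzymes of this stretch did not pass the test. Cyp51, the lanosterol demethylase, came nearest: it measured 109.5, 97.2 and 112 CPM in TNF libraries and 123, 156 and 124 CPM in Control libraries, without overlap (log2 fold change -0.34 ± 0.11 SE, adjusted p = 0.05148). Its exons overlap those of Akap9 on the opposite strand, and Akap9 was called higher. Nsdhl, a further step of methyl removal, was the flattest, at 60.9 ± 2.41 CPM in TNF and 60.7 ± 4.42 CPM in Control (SD, n = 3 each). Fdft1 (squalene synthase), Lss (lanosterol synthase), Hsd17b7 and Sc5d had log2 fold changes of 0.16, 0.14, 0.09 and 0.13. Exons of Fdft1 overlap 774 exon bases of Ctsb on the opposite strand. Ctsb was called lower, at 1393 CPM in TNF and 2238 CPM in Control (log2 fold change -0.68, adjusted p = 0.02183).

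Upstream sequence was compared with these values for 31 of the 39 genes that have an entry in the RefSeq promoter table (build GRCm38.p6, 41 promoters, each 250 bases before the start and 50 after it). The classical sterol regulatory element was searched as TCACNCCAC, and the NF-Y box as CCAAT, both on either strand. The sterol element was found in 1 of 31 genes, Hmgcs1, beside 1.38% of the 11403 matched genes of the files and 1.24% of all 32851 promoters. The NF-Y box was found in 14 of 15 sterol enzymes, 4 of 5 sensing genes, 4 of 7 fatty acid genes and 0 of 4 efflux and oxysterol genes, beside 43% of the matched genes of the files and 37.4% of all promoters. The promoters of 3 sterol enzymes with different outcomes are shown, and these were chosen after their values were seen: Hmgcs1 (not called), Msmo1 (higher in TNF) and Ebp (lower in TNF). Each line gives the 250 bases before the start, 5′ to 3′ on the strand of the gene, at chr13:119690101-119690350 (plus strand) for Hmgcs1, chr8:64733579-64733828 (minus strand) for Msmo1 and chrX:8193513-8193762 (minus strand) for Ebp, with capitals on the sterol element and on CCAAT or its reverse ATTGG.
Hmgcs1: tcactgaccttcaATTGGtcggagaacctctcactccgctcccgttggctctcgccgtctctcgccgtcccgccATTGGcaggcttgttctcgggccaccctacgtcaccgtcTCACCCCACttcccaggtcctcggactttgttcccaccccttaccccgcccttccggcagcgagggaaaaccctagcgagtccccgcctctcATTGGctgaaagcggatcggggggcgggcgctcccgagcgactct
Msmo1: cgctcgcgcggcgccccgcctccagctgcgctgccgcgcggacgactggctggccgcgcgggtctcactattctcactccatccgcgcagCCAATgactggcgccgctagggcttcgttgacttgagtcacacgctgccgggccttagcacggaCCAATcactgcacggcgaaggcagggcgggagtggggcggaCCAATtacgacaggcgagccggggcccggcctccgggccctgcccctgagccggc
Ebp: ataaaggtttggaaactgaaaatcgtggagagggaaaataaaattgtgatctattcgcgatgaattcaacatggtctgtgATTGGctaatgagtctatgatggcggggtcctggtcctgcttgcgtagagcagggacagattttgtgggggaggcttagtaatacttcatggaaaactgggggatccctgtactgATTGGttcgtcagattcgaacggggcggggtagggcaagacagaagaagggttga
Hmgcs1 holds the sterol element 137 bases before the start, and it overlaps none of the NF-Y boxes there. All 3 windows hold NF-Y boxes, so genes that rose, fell and were not called share these letters. A match is a description of the letters and not a measured binding site. Only these exact letters in these windows were searched, so a gene without a match may still hold a sterol element. Fdps, Fdft1, Sqle, Stard4, Abcg1, Scd1, Scd2 and Fads1 had no promoter entry and were not searched.

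Of the 6 genes of sterol sensing and transport, Srebf1 rose and none fell (16.7% called, beside 32.4% of all tested genes). Srebf1 encodes SREBP-1, the form better known for fatty acid genes. It measured 112, 112 and 105 CPM in TNF libraries, against 85.7, 84.0 and 86.8 CPM in Control libraries, without overlap. The log2 fold change was 0.36 ± 0.07 (SE, adjusted p = 0.006189), and it was called without any single library. Its exons overlap those of Rai1 on the opposite strand, which was not called.

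Srebf2 encodes SREBP-2, the main driver of sterol enzymes. It measured 225, 216.5 and 229 CPM in TNF libraries and 195, 209 and 194 CPM in Control libraries, and its log2 fold change of 0.17 ± 0.08 (SE, adjusted p = 0.1601) did not pass. Scap measured 255, 252 and 232 CPM in TNF libraries and 220.0, 211 and 244 CPM in Control libraries (adjusted p = 0.3245). The values of Srebf2 did not overlap between the groups and those of Scap did. Insig1, itself an SREBP target, measured 54.2, 62.3 and 60.5 CPM in TNF libraries and 51.9, 75.0 and 48.6 CPM in Control libraries. Its log2 fold change of 0.01 ± 0.16 (SE, adjusted p = 0.965) had a 95% interval of -0.35 to 0.37, with Control library 2 high. Insig2 and Stard4, a carrier of sterol between membranes, had log2 fold changes of 0.11 and 0.08 and were not called.

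The 5 genes of sterol efflux and oxysterols held 3 that rose and none that fell (60% called, beside 32.4% of all tested genes). Ch25h, the enzyme that adds a hydroxyl to the side chain of cholesterol to make 25-hydroxycholesterol, measured 52.0, 55.2 and 43.3 CPM in TNF libraries, against 3.80, 3.33 and 3.80 CPM in Control libraries. The lowest TNF library lay far above the highest Control library. The fold change was 13.8 with a 95% interval of 11.3 to 16.8 (log2 3.79 ± 0.12 SE, adjusted p = 3.212e-07), the 28th smallest p among all tested genes. Gm26902, whose exons overlap 159 exon bases of Ch25h on the opposite strand, was called higher too, at 2.26 ± 0.175 CPM in TNF and 0.345 ± 0.0869 CPM in Control (SD, n = 3 each). The library kit marks strand per the labels, but how strand was used in counting is not given in the sources used here, so reads of this pair may be mixed.

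Abca1, the pump that hands cholesterol to apolipoproteins, measured 116, 123 and 109 CPM in TNF libraries, against 53.0, 56.7 and 46.1 CPM in Control libraries. All 3 TNF libraries stood well above all 3 Control libraries. The fold change was 2.23 with a 95% interval of 1.91 to 2.61 (log2 1.16 ± 0.10 SE, adjusted p = 4.476e-05). Nr1h2, the widely expressed LXR, measured 141, 134 and 122 CPM in TNF libraries, against 102, 85.3 and 109 CPM in Control libraries (log2 fold change 0.42 ± 0.11 SE, adjusted p = 0.01769). The groups of Nr1h2 did not overlap in CPM, but the adjusted p was 0.08306 without TNF library 1. In TPM its groups overlapped, at 184.5, 154.5 and 141.2 in TNF libraries and 147.1, 108.4 and 149.0 in Control libraries. Ch25h and Abca1 were called higher under all 21 alternative settings.

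The other LXR and the other pump were not called. Nr1h3 averaged 6.14 ± 0.785 CPM in TNF and 6.10 ± 0.681 CPM in Control (SD, n = 3 each). Abcg1, which exports cholesterol to lipoprotein particles, averaged 8.08 ± 0.744 CPM in TNF and 9.39 ± 1.25 CPM in Control (SD, n = 3 each), with a log2 fold change of -0.22 ± 0.12 (SE, adjusted p = 0.2048). Both overlapped between the groups, and the difference between Abca1 and Abcg1 was not tested. The upstream sequences of Ch25h and Abca1 are shown because these genes had the 2 smallest adjusted p values of the 39. They lie at chr19:34475149-34475398 and chr4:53159896-53160145 of GRCm38.p6, both on the minus strand, and are given 5′ to 3′ on that strand without capitals, since neither motif searched is in them.
Ch25h: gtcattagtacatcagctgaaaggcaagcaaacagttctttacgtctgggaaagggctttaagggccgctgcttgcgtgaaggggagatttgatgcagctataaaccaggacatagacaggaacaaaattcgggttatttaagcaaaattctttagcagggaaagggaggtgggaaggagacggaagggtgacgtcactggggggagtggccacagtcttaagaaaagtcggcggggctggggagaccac
Abca1: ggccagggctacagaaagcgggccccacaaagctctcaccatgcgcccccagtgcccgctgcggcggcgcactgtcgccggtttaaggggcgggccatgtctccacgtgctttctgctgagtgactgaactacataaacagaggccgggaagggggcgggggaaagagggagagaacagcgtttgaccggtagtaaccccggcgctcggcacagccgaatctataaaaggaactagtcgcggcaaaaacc

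**Figure D2:**
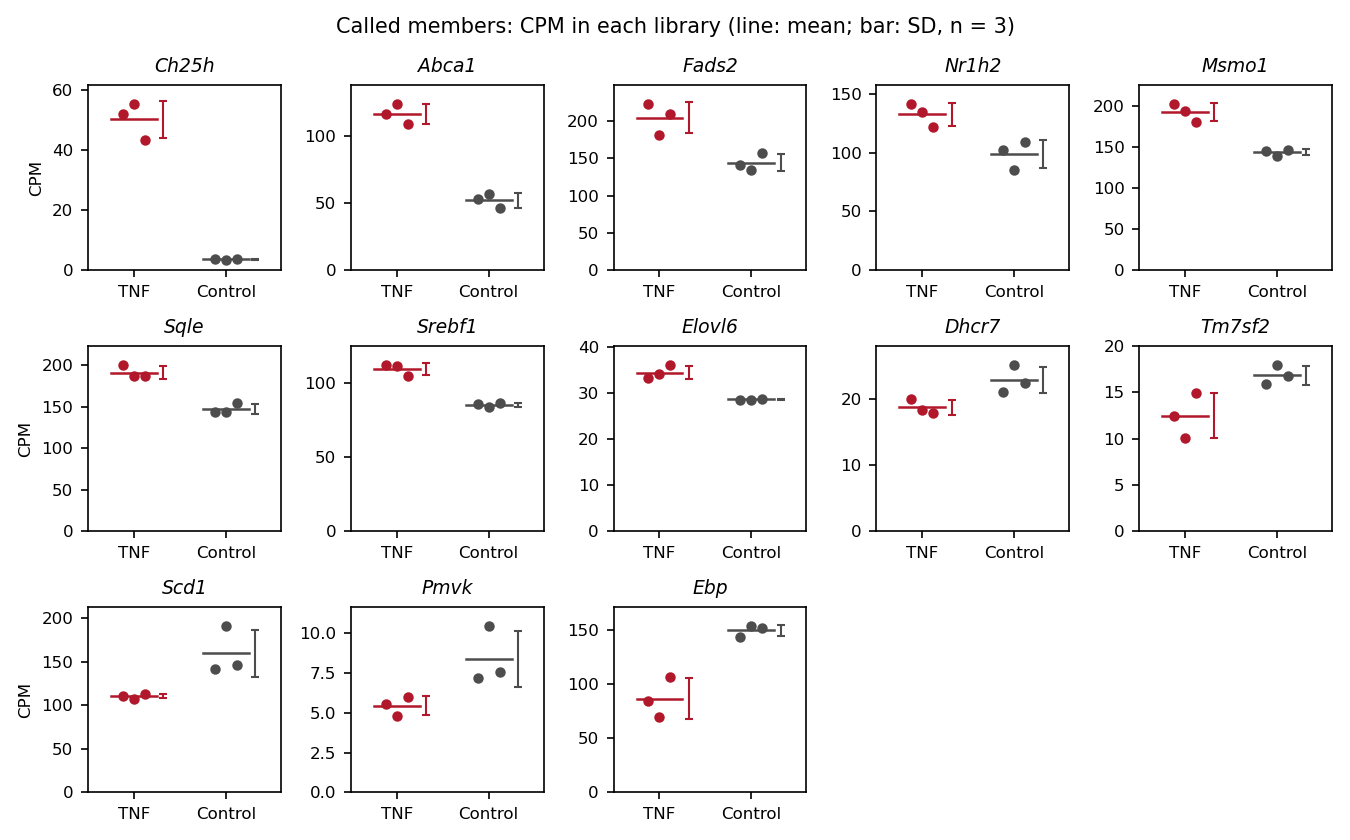
CPM in each library for the 13 called genes, in order of fold change, with TNF on the left and Control on the right of each panel (line: mean; bar: SD, n = 3). Every axis starts at 0, and the 2 groups do not overlap in any panel; Ch25h lies at 43.3 to 55.2 CPM in TNF and 3.33 to 3.80 CPM in Control.

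Other enzymes of oxysterol metabolism changed in both directions. From a list of 8 enzymes of sterol breakdown and oxysterols, 7 were listed and tested, and 1 rose and 2 fell. That is 42.9% called, beside 32.4% of all tested genes. Cyp7b1, which hydroxylates 25-hydroxycholesterol further, measured 23.8, 20.4 and 23.1 CPM in TNF libraries, against 2.18, 2.90 and 2.11 CPM in Control libraries. It was 9.31-fold higher in TNF (95% interval 7.44 to 11.6, adjusted p = 1.017e-06). Hsd3b7, which acts on the product of Cyp7b1, was level at 33.1 ± 1.94 CPM in TNF and 33.2 ± 2.34 CPM in Control (SD, n = 3 each) and was not called. Cyp27a1, the mitochondrial sterol hydroxylase, fell to 3.54 ± 0.222 CPM in TNF, against 5.45 ± 0.691 CPM in Control (SD, n = 3 each, adjusted p = 0.00703). Cyp39a1, which hydroxylates another oxysterol, fell to 8.42 ± 0.623 CPM in TNF, against 19.9 ± 1.77 CPM in Control (SD, n = 3 each, adjusted p = 3.654e-05). The groups did not overlap in the 3 called enzymes.

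**Figure D3:**
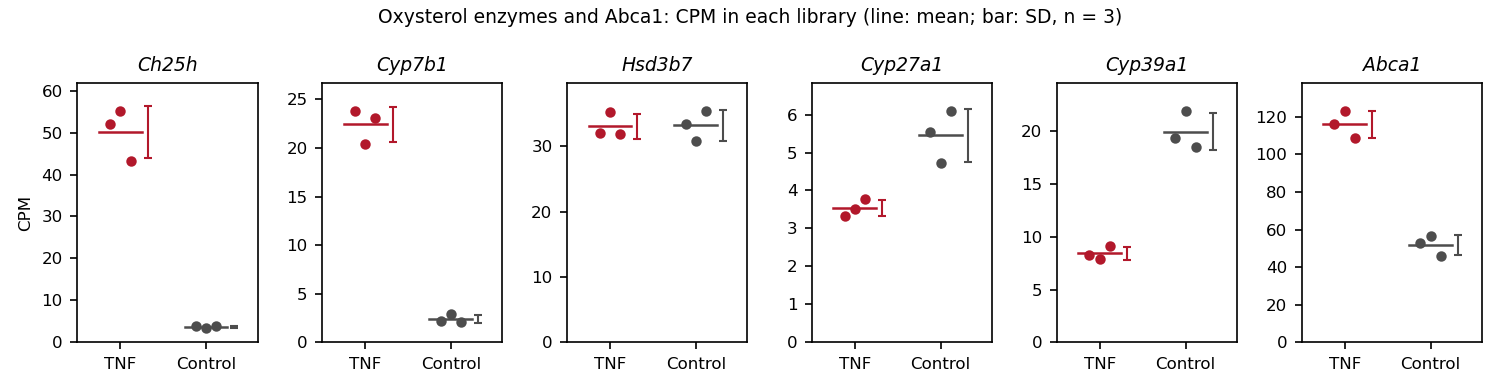
CPM in each library for 5 oxysterol enzymes and Abca1, with TNF on the left and Control on the right of each panel (line: mean; bar: SD, n = 3). Ch25h and Cyp7b1 are higher in TNF, Cyp27a1 and Cyp39a1 lower, and Hsd3b7 averages 33.1 CPM in TNF and 33.2 CPM in Control.

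None of the 3 enzymes of fatty acid synthesis passed the test (0% called, beside 32.4% of all tested genes). Fasn, the synthase that builds palmitate, measured 171, 167 and 171 CPM in TNF libraries and 166, 169 and 172 CPM in Control libraries. It was the steadiest of these genes, and its 95% interval allowed a fold change of 0.888 to 1.13 (adjusted p = 0.9807). Acaca, the carboxylase that makes malonyl-CoA, measured 62.8, 60.6 and 64.5 CPM in TNF libraries and 56.8, 65.7 and 53.1 CPM in Control libraries (adjusted p = 0.4617). Acly, which splits citrate into cytosolic acetyl-CoA, measured 287, 260.4 and 306.5 CPM in TNF libraries and 239, 235 and 243 CPM in Control libraries. Its groups did not overlap, but the log2 fold change of 0.25 ± 0.09 (SE, adjusted p = 0.07036) passed only without TNF library 2 among the repeats without 1 library (adjusted p = 0.03907).

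The 7 desaturases and elongases held 2 genes that rose and 1 that fell (42.9% called, beside 32.4% of all tested genes). Scd1, a desaturase that makes oleate, measured 111, 108 and 113 CPM in TNF libraries, against 142, 191 and 146 CPM in Control libraries. It was 30.7% lower in TNF (log2 fold change -0.53 ± 0.12 SE, adjusted p = 0.009804), and it stayed called without any single library. Scd2, its close relative and the most abundant of the 39 genes per length, measured 845.5, 844 and 908 CPM in TNF libraries and 827, 1161 and 883 CPM in Control libraries. Its groups overlapped, and the log2 fold change was -0.14 ± 0.15 (SE, adjusted p = 0.4817). Scd1 and Scd2 are similar in sequence, so reads that fit both could be split between them in the authors' counting.

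Fads2, the first desaturase on the way to long polyunsaturated fatty acids, measured 222, 181.5 and 210.0 CPM in TNF libraries, against 141.5, 134 and 157 CPM in Control libraries. All TNF libraries lay above all Control libraries in CPM (log2 fold change 0.50 ± 0.11 SE, adjusted p = 0.007064). In TPM the groups of Fads2 overlapped, at 126.4, 88.5 and 118.2 in TNF libraries and 85.0, 70.6 and 91.9 in Control libraries. Fads1, the next desaturase of that route, averaged 206 ± 26.7 CPM in TNF and 219 ± 4.99 CPM in Control (SD, n = 3 each) and was not called. Elovl6, which lengthens palmitate to stearate, measured 33.3, 34.1 and 36.0 CPM in TNF libraries, against 28.6, 28.5 and 28.8 CPM in Control libraries. The groups of Elovl6 did not overlap in CPM, and the change was small (log2 fold change 0.27 ± 0.07 SE, adjusted p = 0.02349). In TPM the groups of Elovl6 overlapped, at 9.60, 8.47 and 10.2 in TNF libraries and 8.70, 7.53 and 8.46 in Control libraries. The call of Elovl6 was lost without Control library 1 (0.08438), TNF library 1 (0.06358) or TNF library 3 (0.07609). Elovl5, which lengthens polyunsaturated fatty acids, averaged 32.9 ± 5.81 CPM in TNF and 44.6 ± 9.63 CPM in Control (SD, n = 3 each, adjusted p = 0.08087, and 0.03522 without TNF library 3). Elovl1, which makes very long saturated chains, had a log2 fold change of 0.08 and was not called. Exons of Elovl1 overlap those of Cdc20 on the opposite strand, and Cdc20 was called lower (log2 fold change -1.08, adjusted p = 0.0006671).

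Set side by side, the 18 sterol enzymes and the 10 fatty acid genes differed by less than the spread of single libraries within a group. Of the sterol enzymes 2 rose and 4 fell (33.3% called), and of the fatty acid genes 2 rose and 1 fell (30% called), beside 32.4% of all tested genes. The median log2 fold change was 0.05 for the sterol enzymes and 0.04 for the fatty acid genes, against -0.0046 over all tested genes. The difference of the medians was 0.0014. For single libraries, the sterol minus fatty acid median of log2 CPM, relative to the Control mean, had a pooled SD within groups of 0.0654. That SD describes single libraries and is not the error of the difference between groups. Leaving out 1 library at a time moved the difference of the medians between -0.029 and 0.048. No test was made of a value over genes that were proposed together.

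Summed levels gave the same picture. With the 18S gene left out of the TPM scale, the sterol enzymes summed to 1367, 1275 and 1284 TPM in TNF libraries and 1279, 1171 and 1326 TPM in Control libraries. The fatty acid genes summed to 876, 835 and 876 TPM in TNF libraries and 842, 846 and 852 TPM in Control libraries. Both sums overlapped between the groups. The ratio of sterol to fatty acid TPM was 1.56, 1.53 and 1.47 in TNF libraries and 1.52, 1.38 and 1.56 in Control libraries, so Control library 2 was the lowest of all 6. Fdps made up 21.7% of the sterol sum and Scd2 36.2% of the fatty acid sum over the 6 libraries, so these sums follow those genes most.

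**Figure D4:**
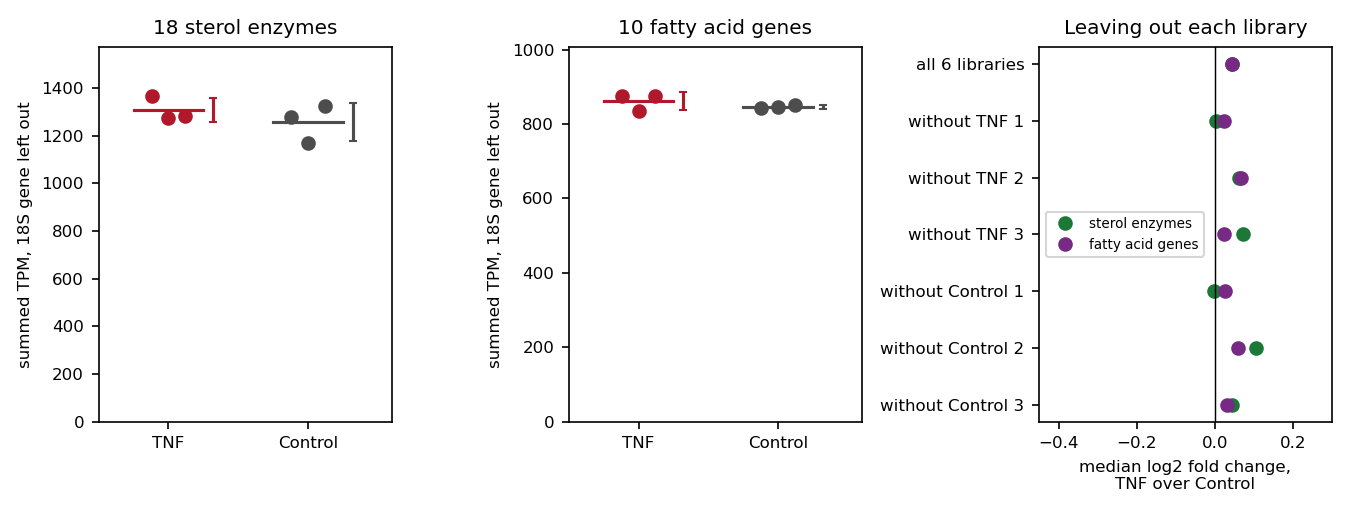
Left and middle: summed TPM, on a scale without the 18S gene, of the 18 sterol enzymes and the 10 fatty acid genes in each TNF and Control library (line: mean; bar: SD, n = 3). Right: median log2 fold change of both groups of genes with all 6 libraries and without each library in turn; the medians lie between -0.0026 and 0.11 throughout.

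Control library 2 stood apart in several of these genes. Hmgcs1, Pmvk, Cyp51, Insig1, Scd1, Scd2 and Elovl5 were at least 1.25-fold higher there than in both other Control libraries, and none of the 39 genes was as far below them. That is 17.9% of the 39 genes, beside 9.5% of all tested genes and 15 of 24 macrophage markers (62.5%). Over all tested genes 1477 were higher in that library by this measure and 1829 lower. With it left out, Scd1 had a log2 fold change of -0.38 (adjusted p = 0.005034) and Pmvk one of -0.43 (adjusted p = 0.02842), and both were still called. Hmgcs1 and Scd2 changed sign, to 0.11 (adjusted p = 0.3764) and 0.02 (adjusted p = 0.9047). The values without it were 0.23 for Insig1 (adjusted p = 0.08609), -0.22 for Cyp51 (adjusted p = 0.09654) and -0.25 for Elovl5 (adjusted p = 0.2074), none of them called. Over all 39 genes, these included, the median coefficient of variation was 7.15% in TNF and 7.65% in Control. Over all tested genes, not matched for level, it was 9.46% in TNF and 10.4% in Control. The heat map shows each gene in each library.

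**Figure D5:**
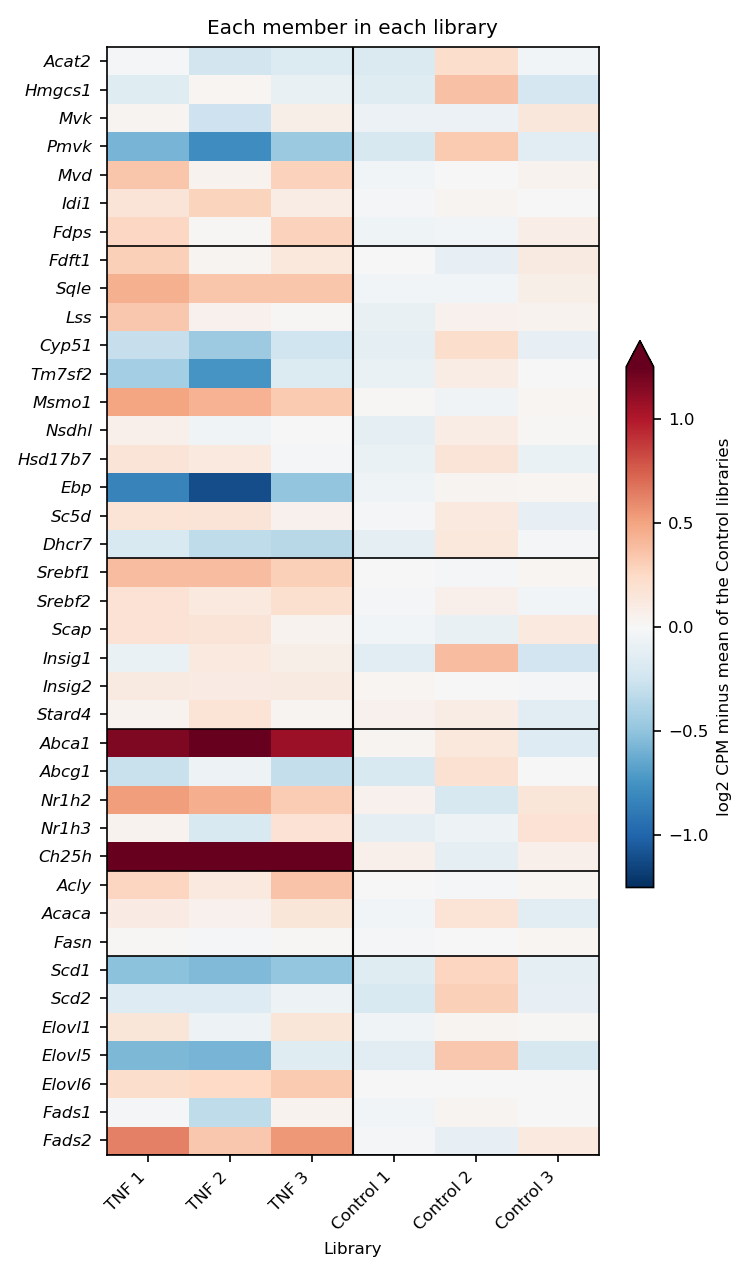
Log2 CPM of each of the 39 genes in each library minus the mean of the 3 Control libraries, with TNF libraries on the left; rows follow the order of roles in the text, and colours end at 1.25 either way, beyond which Ch25h lies in all 3 TNF libraries. Control library 2 is darker red than the other Control libraries in Hmgcs1, Pmvk, Insig1, Scd1, Scd2 and Elovl5.

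Other genes of sterol handling were read from the same fit. Of 17 tested genes of other sterol and isoprenoid synthesis and SREBP processing, 1 rose and none fell. That is 5.88% called, beside 32.4% of all tested genes. The riser was Nus1, a subunit of the enzyme that makes dolichol, at 148 ± 7.37 CPM in TNF and 108 ± 8.38 CPM in Control (SD, n = 3 each, adjusted p = 0.004978). Of 20 genes of sterol uptake, storage and lysosomal export, 5 rose, 3 fell and 12 did not pass (40% called, beside 32.4% of all tested genes). Lipa, the lysosomal lipase that frees cholesterol from its esters, averaged 631 ± 53.3 CPM in TNF and 463 ± 26.6 CPM in Control (SD, n = 3 each, adjusted p = 0.01347). Npc1, which passes cholesterol out of the lysosome, averaged 97.3 ± 3.57 CPM in TNF and 79.7 ± 4.87 CPM in Control (SD, n = 3 each, adjusted p = 0.02566). Its partner Npc2 and the lysosomal membrane proteins Lamp2 and Scarb2 were not called, with log2 fold changes of -0.11, -0.33 and 0.05. Gramd1b and Gramd1a, sterol carriers between plasma membrane and endoplasmic reticulum, were higher by 0.56 and 0.27 on the log2 scale (adjusted p = 0.0009681 and 0.02586), and Stard3, an endosomal carrier, by 0.57 (adjusted p = 0.02293). Gramd1c, of the same family as Gramd1a, was not called at -0.27.

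Apoe, the apolipoprotein, fell to 40.6, 36.4 and 46.9 CPM in TNF libraries, against 88.5, 144 and 88.3 CPM in Control libraries (log2 fold change -1.37 ± 0.20 SE, adjusted p = 0.0008655). Control library 2 was the highest, and the groups did not overlap. Cav1, the coat protein of caveolae, and Mylip, an LXR target that marks lipoprotein receptors for breakdown, had log2 fold changes of -0.73 (adjusted p = 0.003351) and -0.47 (adjusted p = 0.004269). Among 22 tested genes of other fatty acid synthesis, 3 rose and 7 fell (45.5% called, beside 32.4% of all tested genes). The risers were Elovl7, an elongase of saturated chains, with a log2 fold change of 0.72 (adjusted p = 0.0007211), Hsd17b12, the ketoreductase of the elongation cycle, at 0.49 (adjusted p = 0.007692), and Mcat of mitochondrial fatty acid synthesis, at 0.42 (adjusted p = 0.01961). The fallers with the smallest adjusted p values were Hacd4 and Hacd1, of the family of elongation dehydratases, with log2 fold changes of -0.89 (adjusted p = 4.3e-05) and -0.67 (adjusted p = 0.0003236). Over all 122 tested genes of the 6 further lipid lists, 33.6% were called, beside 32.4% of all tested genes.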

How the data were processed

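RNA of 3 TNF and 3 Control libraries was sequenced after SMART-Seq Stranded library preparation, per the labels' protocols. Per the submitters' processing notes, the reads went through Trim Galore, STAR, StringTie and Salmon with genome build GRCm39; versions and strand settings are not given in the sources used here. The authors deposited expected counts, as whole numbers and without a gene column, and TPM with gene names. A title line calls the deposited counts normalized and the column name calls them raw. Their totals differ between libraries, and they were used as counts. Count lines were joined to TPM lines by position: all 260 zeros coincide, and log2(count/TPM), centred per library, had a median SD of 0.0275 across libraries, and of 0.413 after a shift by 1 line. Each of the 15634 listed genes reached 10 counts in 3 or more libraries; genes below that were not analysed here.

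The counts entered edgeR 4.0.16 under R 4.3.3 (filterByExpr, TMM, glmQLFit and glmQLFTest, two-sided, group as the only term) over all 15547 genes that passed filterByExpr, and adjusted over all of them by Benjamini-Hochberg. Genes under 0.05 were called. The procedure was tested on simulated counts, drawn independently for each library with the dispersions of these data. Such counts cannot show how the procedure behaves when many genes of a library shift together. CPM values use the TMM factors, the SE is the absolute log2 fold change divided by the square root of F, and SDs are over 3 libraries. Same-numbered libraries did not deviate together (correlations of -0.0038, -0.245 and -0.198), so they were not paired. Alternatives were other scalings, DESeq2 1.42.0, limma 3.58.1 (voom, or log2 TPM after adding 1 or 0.1), other filters, a stricter threshold, a replicate block and repeats without 1 or 2 libraries. The 2 settings without the 18S gene in totals or TPM were chosen after seeing the data.

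The members, lists and rules were chosen with earlier results of these data known. All 39 members are named, with values per library for called genes and for a set of key genes. Of each further list, the 3 called genes with the smallest adjusted p and all called genes of a direction with 5 or fewer are named; Npc2, Lamp2, Scarb2 and Gramd1c were added after their values were seen. Upstream sequences come from RefSeq promoters of GRCm38.p6, and exon overlaps from the annotation of GRCm38, not from the build of the files, so no coordinates of the files' build are given. The rule for sequences asked first for called members with the sterol element; there were 0, so Hmgcs1, Msmo1 and Ebp were chosen after their values were seen.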

Additional observations from a re-analysis of the deposited data

How the results depend on the processing

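Ch25h, Abca1 and Ebp kept their calls under all 21 alternatives, and no called gene reversed. Of the 39 genes, 8 were called higher and 5 lower; leaving out 1 library gave 5 to 10 higher and 2 to 5 lower, and 7 of the 13 called genes (Ch25h, Abca1, Ebp, Msmo1, Srebf1, Fads2 and Scd1) were called in every such repeat. Of the genes not called, 11 changed sign in at least 1 alternative. Fewer libraries leave fewer degrees of freedom; elsewhere the cause was not tested.

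With library totals, 1612 of all genes were called higher (2489 as reported), and 2 of the 39 genes, 0 sterol enzymes, 0 sensing genes, 0 fatty acid genes and 12 other lipid genes (24 as reported) higher, with 2 fatty acid genes lower. Limma on log2 TPM (adding 1, adding 0.1, and adding 1 for genes of at least 1 TPM) called 1424, 1407 and 1316 of all genes higher, 2 of the 39 genes each, 0 sterol, 0 sensing and 0 fatty acid genes each, and 10, 8 and 10 other lipid genes. Adding 0.1, 2 of the 39 genes, 2 sterol enzymes and 0 fatty acid genes were lower, and with at least 1 TPM, 3 and 2 sterol enzymes. On TPM rescaled without the 18S gene, 5 of the 39 genes, 0 sensing genes and 1 fatty acid gene were higher, and 10 other lipid genes (17 as reported) lower.

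RLE factors called 3 of the 39 genes and 2 sterol enzymes lower. DESeq2 called 2 fatty acid genes lower. At an adjusted p under 0.01, 1587 of all genes were higher and 1534 lower, with 1 fatty acid gene higher, and 2 of the 39 genes, 1 sterol enzyme and 11 other lipid genes lower. Without Control library 2 and TNF library 2 together, 13 of the 39 genes, 4 sterol enzymes, 2 sensing genes and 4 fatty acid genes were higher, and 3 of the 39 genes and 2 sterol enzymes lower. Without 1 library, 1 to 3 sterol enzymes were higher and 1 to 3 lower, 1 to 3 fatty acid genes higher and 1 to 2 lower, and 16 to 24 other lipid genes higher and 11 to 17 lower.

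With the replicate number as a block, 2 of the 39 genes, 1 sterol enzyme and 11 other lipid genes were called lower. In the same setting 1 fatty acid gene was called higher. No library correlated best with its own number, and the labels do not say that numbers pair the libraries.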

Other observations

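Of 25 tested genes of fatty acid activation and glycerolipid synthesis, 6 rose and 2 fell in TNF and 17 did not pass (32% called, beside 32.4% of all tested genes). Acsl1, which links fatty acids to coenzyme A, measured 174, 156 and 146 CPM in TNF libraries, against 46.7, 47.0 and 49.0 CPM in Control libraries, and was 3.33-fold higher in TNF (95% interval 2.88 to 3.84, edgeR adjusted p = 2.545e-06). Acsl3, another enzyme of that family, moved the other way, at 54.5 ± 5.00 CPM in TNF and 76.7 ± 8.59 CPM in Control (SD, n = 3 each, adjusted p = 0.008988). Dgat2, which makes triglyceride, rose at a low level, to 7.07 ± 1.82 CPM in TNF, against 3.16 ± 0.532 CPM in Control (SD, n = 3 each, adjusted p = 0.00245). Lpin2, a phosphatidate phosphatase, had a log2 fold change of 0.45 (adjusted p = 0.003688), and Plin2, a coat protein of lipid droplets, one of -0.29 (adjusted p = 0.01724).

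Of 31 tested genes of fatty acid uptake and oxidation, 8 rose, 3 fell and 20 did not pass (35.5% called, beside the same 32.4%). Lpl, the lipase that frees fatty acids from lipoproteins, measured 776, 781 and 788 CPM in TNF libraries, against 577, 462 and 484.6 CPM in Control libraries (log2 fold change 0.62 ± 0.12 SE, adjusted p = 0.003565). Lpl and Fabp4 are also adipocyte markers, and the other 4 listed markers of that kind fell: Plin4 by 2.94, Pparg by 1.07, Cebpa by 1.01 and Car3 by 5.51 on the log2 scale. Ppard, a receptor for fatty acids, had a log2 fold change of 0.46 (adjusted p = 0.004439). Ppargc1a, a coactivator of oxidative genes, was called higher at a low level, 0.935 ± 0.123 CPM in TNF and 0.284 ± 0.0431 CPM in Control (SD, n = 3 each, adjusted p = 0.001239), but in TPM it averaged 0.313 in TNF and 0.24 in Control, a much smaller ratio. Acaa2 and Acadm of mitochondrial beta-oxidation and the carrier Fabp5 had log2 fold changes of -0.43, -0.37 and -0.43 (adjusted p = 0.004539, 0.01468 and 0.02074).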
